A study of Mus musculus with 6 samples.

Results

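Chemokines and their receptors were examined in small intestine tumors of mice treated with PEGPH20 or with vehicle. The set holds the 54 protein-coding genes of the deposited table, out of 21878 gene rows, whose mouse symbol begins with a chemokine stem (Ccl, Cxcl, Cx3cl or Xcl) or a receptor stem (Ccr, Cxcr, Cx3cr, Xcr or Ackr) followed by a number. It has 33 ligands and 21 receptors, chosen by name and not by any measured value, though with earlier results of these data known. Transcripts of 6 tumors were counted from their 3' ends. PEGPH20 replicates 4 to 6 came from mice given PEGPH20, a pegylated recombinant human hyaluronidase that degrades the matrix glycosaminoglycan hyaluronan, at 0.0375 mg/kg. Treatment began at 11 weeks of age, with 2 doses per week over 3 weeks, and the tumors were from mice 14 weeks old. Vehicle replicates 1 to 3 came from mice of that age on the vehicle schedule. Mice of both groups were Prkci f/f Prkcz f/f;Villin-Cre: the Villin promoter drives the Cre recombinase in intestinal epithelium, so that both atypical protein kinase C genes are floxed and targeted there, in treated and vehicle tumors alike. Each library holds RNA of bulk tumor tissue. Whether the 3 tumors of a group came from different mice is not labelled, and the p-values therefore refer to the variation among these 6 libraries, which may be technical.

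Chemokines are small secreted or membrane-bound proteins that direct the movement of leukocytes. They act through receptors that signal through inhibitory G proteins, and the family is named by the spacing of its first cysteines (CC, CXC, CX3C and XC). Atypical receptors (Ackr) bind chemokines without G-protein signalling and remove or transport them. In the small intestine, Ccl25 from the epithelium draws lymphocytes that carry Ccr9, while the CXC ligands of Cxcr2 draw neutrophils.

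The promoters of 5 members are shown. Cxcl14 and Ackr4 had the lowest log2 differences of the tested members, Ccl25 and Cx3cl1 are ligands whose PEGPH20 libraries all lay above vehicle, and the Cxcl10 promoter holds several inflammatory motifs together. Each sequence spans 250 bases before to 50 bases after a RefSeq start site on GRCm38.p6, 5′ to 3′ on the gene's strand. Capitals mark matches, on either strand, to 4 letter patterns in which N is any base. These are the TATA box as spelled TATAAA, the NF-kB-like pattern GGGNNNTTCC, the ISRE-like pattern (interferon-stimulated response element) GAAANNGAAA and the GAS-like pattern (gamma-activated site) TTCNNNGAA. The matches shown do not overlap each other. Cxcl14 lies at chr13:56296502-56296801 on the minus strand, Ackr4 at chr9:104126594-104126893 on the minus strand, Ccl25 at chr8:4349338-4349637 on the plus strand (the downstream one of its start sites), Cx3cl1 at chr8:94771930-94772229 on the plus strand, and Cxcl10 at chr5:92348840-92349139 on the minus strand.
Cxcl14: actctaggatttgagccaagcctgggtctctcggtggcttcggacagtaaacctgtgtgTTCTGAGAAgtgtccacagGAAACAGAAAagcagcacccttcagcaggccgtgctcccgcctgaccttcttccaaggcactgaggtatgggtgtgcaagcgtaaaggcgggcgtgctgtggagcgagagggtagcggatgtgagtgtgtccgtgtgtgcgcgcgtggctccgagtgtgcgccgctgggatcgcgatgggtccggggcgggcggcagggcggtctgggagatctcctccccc
Ackr4: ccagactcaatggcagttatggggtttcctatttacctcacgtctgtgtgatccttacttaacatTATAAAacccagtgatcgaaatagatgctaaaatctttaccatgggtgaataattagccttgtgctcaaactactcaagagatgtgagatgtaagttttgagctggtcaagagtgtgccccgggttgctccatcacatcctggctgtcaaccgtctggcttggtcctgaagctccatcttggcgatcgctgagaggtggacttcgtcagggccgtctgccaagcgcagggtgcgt
Ccl25: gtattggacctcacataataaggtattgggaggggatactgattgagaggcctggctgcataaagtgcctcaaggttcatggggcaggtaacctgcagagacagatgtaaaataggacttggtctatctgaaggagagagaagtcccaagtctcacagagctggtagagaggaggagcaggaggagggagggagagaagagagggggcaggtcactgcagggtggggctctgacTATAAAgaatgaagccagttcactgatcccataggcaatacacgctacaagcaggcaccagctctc
Cx3cl1: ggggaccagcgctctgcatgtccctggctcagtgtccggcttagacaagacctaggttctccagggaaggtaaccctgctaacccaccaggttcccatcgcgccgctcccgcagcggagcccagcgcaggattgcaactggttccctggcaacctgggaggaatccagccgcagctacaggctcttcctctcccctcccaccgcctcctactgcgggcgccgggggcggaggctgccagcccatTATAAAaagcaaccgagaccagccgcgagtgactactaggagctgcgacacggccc
Cxcl10: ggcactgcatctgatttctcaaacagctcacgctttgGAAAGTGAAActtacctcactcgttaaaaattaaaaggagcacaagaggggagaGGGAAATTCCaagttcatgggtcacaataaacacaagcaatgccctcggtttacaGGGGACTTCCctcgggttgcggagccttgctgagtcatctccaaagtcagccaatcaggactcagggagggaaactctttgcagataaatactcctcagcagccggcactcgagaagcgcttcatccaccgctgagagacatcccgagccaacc

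The Cxcl14 promoter held an ISRE-like and a GAS-like match. The TATAAA match began at base -16 from the start site in the Ccl25 promoter shown, -6 in Cx3cl1 and -185 in Ackr4. The upstream Ccl25 promoter held no TATAAA match. Of the 54 members, 41 had a RefSeq promoter, 45 promoters in all, and 13 had none in the table used. The NF-kB-like pattern was in 20% of the 45 member promoters, against 5.56% of all 32851 promoters of that length. It was found in Cxcl1, Cxcl2, Cxcl3, Cxcl10, Ccl1, Ccl9, Ccl20, Ccr3 and Ccr6. The TATA box was in 28.9% of member promoters against 13.6% of all, the ISRE-like pattern in 4.44% against 3.44%, and the GAS-like pattern in 6.67% against 8.30%. A match is a stretch of letters and not a bound site, and a promoter with no match says nothing of the factor.

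Library totals were 2832876, 2399484 and 2197222 reads in PEGPH20 replicates 4, 5 and 6 and 2075588, 2615578 and 2616142 in vehicle replicates 1, 2 and 3. Values are CPM, counts scaled to a total of 1000000 per library, in which 1 read was worth 0.353 to 0.482 CPM. PEGPH20 replicate 5 stood apart: across the 11389 genes tested, its correlation with the other libraries was 0.844 to 0.907, against 0.945 to 0.979 among those 5. Mitochondrially encoded mRNA took 5.15% of its reads, with 3.34% to 3.99% elsewhere. Prkci and Prkcz were not used as a genotype check, because the deletion is shared by both groups and the tags counted may come from outside it. Epcam, a defining marker of intestinal epithelium, averaged 1768 ± 139 CPM in PEGPH20 and 1407 ± 148 CPM in vehicle tumors (SD, n = 3 each). The 12 listed epithelial markers were mixed, 5 with positive and 7 with negative log2 differences. Their summed levels overlapped, at 7265 to 10007 CPM in PEGPH20 and 9671 to 11107 CPM in vehicle tumors.

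Chemokine transcripts were found in every tumor, with 44 to 46 of the 54 members at 1 read or more in each library. Their summed level was 628, 969 and 664 CPM in PEGPH20 replicates 4, 5 and 6, against 676, 624 and 623 CPM in vehicle replicates 1, 2 and 3, and Ccl25 alone made up 459.7 CPM of the sum in PEGPH20 replicate 5. After the filter on low values (at least 3.99 CPM, about 10 reads, in 3 or more libraries), 24 members could be tested, 15 ligands and 9 receptors. In PEGPH20 tumors Ccl28, Cxcr6, Ccl25 and Cx3cl1 had the largest positive differences among members whose groups did not overlap, and Cxcl14, Ackr4, Cxcl13 and Cxcl16 the largest negative ones.

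With all 6 libraries, 0 of the 24 tested members passed limma's test at an adjusted p of 0.05 (Benjamini-Hochberg over all 11389 genes tested), where 0.079% of all genes passed. edgeR's quasi-likelihood test on the recovered reads also called 0 members, with 0.0878% of all genes called. At an unadjusted p under 0.05 limma gave 9 members, beside 18% of all genes. The 4 on the higher side were Cxcr6, Ccl28, Cx3cl1 and Ccl25 (6.52% of all genes), and the 5 on the lower side were Ackr4, Cxcl14, Cxcl13, Cxcl12 and Cxcl16 (11.5%). The groups did not overlap in 9 of the 24, beside 27.3% of all genes tested. PEGPH20 lay above vehicle in 5 of them (Cxcr6, Ccl28, Cx3cl1, Ccl25 and Ccr2; 9.71% of all genes) and below in 4 (Ackr4, Cxcl14, Cxcl13 and Cxcl16; 17.6% of all genes). Of the 24 members 13 had a positive and 11 a negative log2 difference, with a median of 0.06. Over all genes 4578 were positive and 6811 negative, with a median of -0.09.

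The calls depended on PEGPH20 replicate 5. Without it limma called 2 members, Cxcl14 and Ackr4, both lower in PEGPH20 tumors, beside 2.98% of all genes and 2.03% on the lower side. DESeq2 called these 2 members with all 6 libraries (2.43% of all genes, 1.31% on the lower side), and edgeR called them without replicate 5 (3.7% of all genes, 2.18% on the lower side). With array weights, which gave replicate 5 a weight of 0.193, limma called 6 members: Cxcl14, Ackr4, Cxcl13 and Cxcl12 on the lower side and Cxcr6 and Ccl25 on the higher side, beside 7.65% of all genes, 5.07% lower and 2.58% higher. Leaving out any of the other 5 libraries gave 0 members. Ackr4 and Cxcl13 reached the filter on low values through the vehicle libraries alone and Cxcr6 and Ccl28 through the PEGPH20 libraries alone, so that these 4 were tested because of the group in which they were high, and the counts over tested members are a description. PEGPH20 replicate 5 was the highest of the 6 libraries in 7 of the tested members and the lowest in 10, beside 18.4% and 45.3% of all genes, or 63.7% for either.

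**Figure D1:**
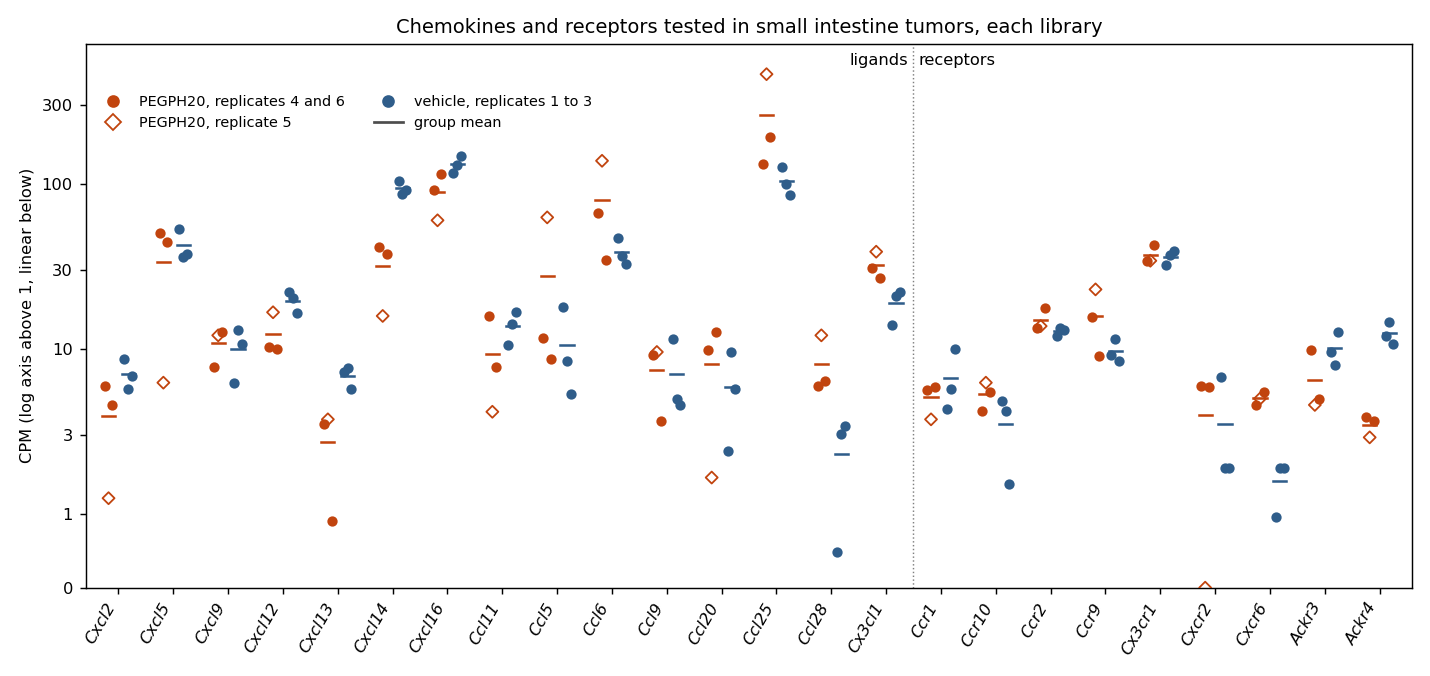
Levels of the 24 tested members in CPM (log axis above 1, linear below), ligands on the left and receptors on the right, with PEGPH20 libraries left of vehicle libraries for each gene, 1 point per library and a bar at each group mean. Cxcl14 and Ackr4 in PEGPH20 tumors lie below all vehicle points, Cxcr6, Ccl28, Cx3cl1 and Ccl25 lie above them, and the open diamond, PEGPH20 replicate 5, is often the extreme value, as for Ccl25 at 459.7 CPM.

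**Figure D2:**
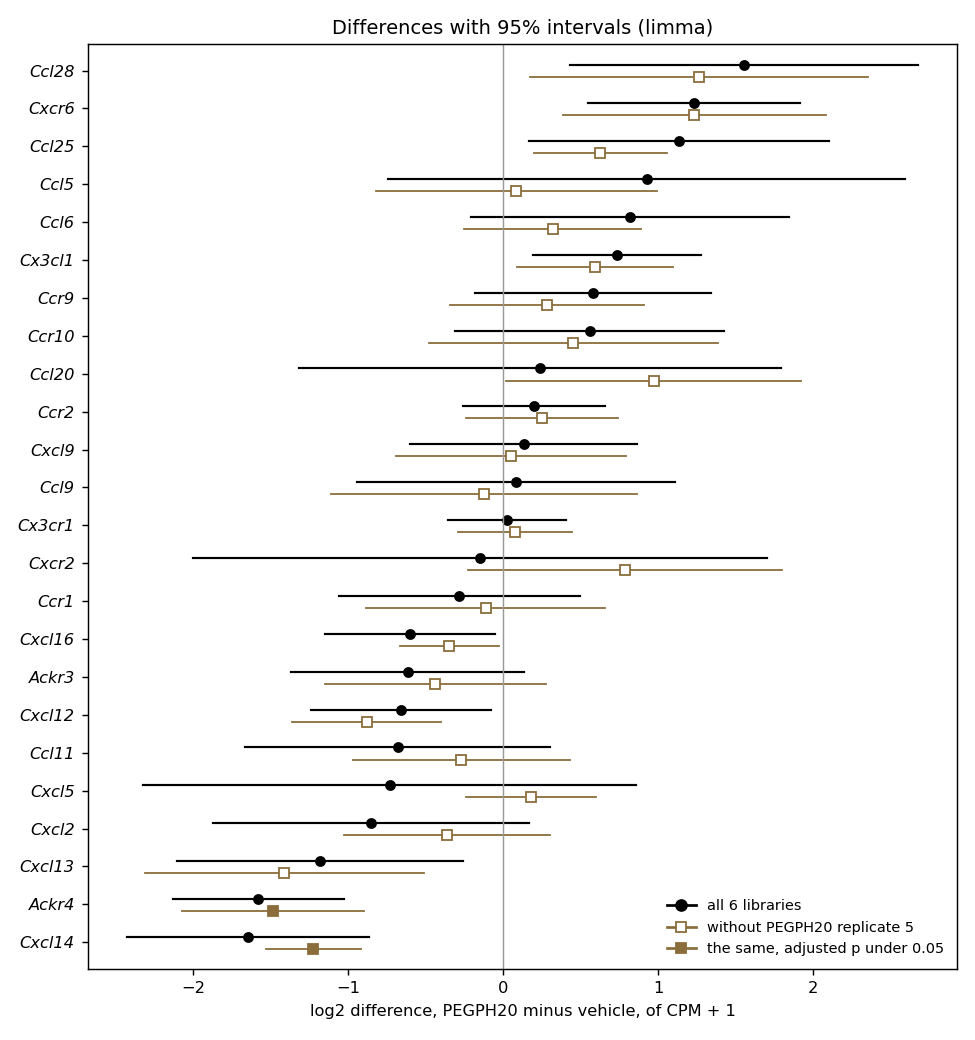
Differences between PEGPH20 and vehicle tumors for the 24 tested members on the log2(CPM + 1) scale, with limma's 95% intervals, from all 6 libraries (black circles) and without PEGPH20 replicate 5 (squares, filled where the adjusted p was under 0.05). Cxcl14 and Ackr4, at -1.65 and -1.58, have the lowest values, and their squares are the filled ones, while Cxcr2 has the widest black interval.

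Among the neutrophil-attracting CXC ligands, the Cxcr2 ligands, Cxcl5 and Cxcl2 could be tested. Cxcl5 was at 50.1, 6.25 and 44.6 CPM in PEGPH20 replicates 4, 5 and 6, against 53.5, 35.9 and 37.5 CPM in vehicle replicates 1, 2 and 3. PEGPH20 replicate 5 was far below the rest, and the other PEGPH20 libraries lay within the vehicle range. The log2 difference was -0.73 (SE 0.69, limma adjusted p = 0.581), and 0.18 without replicate 5. Cxcl2, made by macrophages and stroma in inflammation, was at 6.0, 1.25 and 4.55 CPM in PEGPH20 tumors and 8.67, 5.73 and 6.88 CPM in vehicle tumors. Its groups overlapped between PEGPH20 replicate 4 and vehicle replicate 2, with a log2 difference of -0.85 (SE 0.44, limma adjusted p = 0.338) and -0.36 without replicate 5. Cxcl1, under the filter, had 19 reads in PEGPH20 and 26 in vehicle libraries, and Cxcl3 and Cxcl15 had under 20 reads in all.

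Cxcr2, the receptor of these ligands on neutrophils, was at 6.0, 0 and 5.92 CPM in PEGPH20 replicates 4, 5 and 6, against 6.75, 1.91 and 1.91 CPM in vehicle replicates 1, 2 and 3. The 0 in replicate 5 allows up to 1.25 CPM (3 reads, counting error only). The log2 difference was -0.15 with a 95% interval of -2.0 to 1.71. The sign was not stable: it was 0.79 without PEGPH20 replicate 5, 0.32 without vehicle replicate 1, and, with all 6 libraries, 0.32 with edgeR and 0.22 with DESeq2. Neutrophil markers were lower beside these genes. All 5 tested of the 9 listed had negative differences, with a median log2 difference of -2.33 (-1.62 without replicate 5) and a summed level of 10.8 to 69.2 CPM in PEGPH20 tumors against 95.6 to 228 CPM in vehicle tumors. Mmp8, neutrophil collagenase, averaged 1.89 ± 1.79 CPM in PEGPH20 and 22.5 ± 2.16 CPM in vehicle tumors, and Ly6g averaged 0.926 ± 0.802 CPM in PEGPH20 and 8.88 ± 2.11 CPM in vehicle tumors (SD, n = 3 each; limma adjusted p = 0.0841 for Mmp8 and 0.0979 for Ly6g). S100a8 averaged 9.04 ± 6.23 CPM in PEGPH20 and 49.0 ± 38.5 CPM in vehicle tumors (SD, n = 3 each). Mmp8 and Ly6g passed limma's test without replicate 5, 2 of the 5 tested, beside 2.03% of all genes on the lower side. Both reached the filter on low values through the vehicle libraries alone, so they were tested because of the group in which they were high. Their part in the ligand and receptor values was not tested.

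Of the interferon-inducible ligands of Cxcr3, Cxcl9 was tested. It was at 7.77, 12.1 and 12.7 CPM in PEGPH20 tumors and 6.26, 13.0 and 10.7 CPM in vehicle tumors. The groups overlapped throughout, with a log2 difference of 0.14 and a 95% interval of -0.60 to 0.87. Cxcl10, whose promoter is printed above, was under the filter with 24 reads in PEGPH20 and 15 in vehicle libraries. Cxcr3, their receptor on activated T cells, had 5 reads in each group.

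Cxcl14, an epithelial and fibroblast chemokine with no settled signalling receptor, was lower in every PEGPH20 library. It was at 41.7, 15.8 and 37.3 CPM in PEGPH20 replicates 4, 5 and 6, against 104, 86.4 and 91.0 CPM in vehicle replicates 1, 2 and 3. No overlap was seen, and the highest PEGPH20 library was under the lowest vehicle library by a wide margin. The means were 31.6 ± 13.8 CPM in PEGPH20 and 93.8 ± 9.17 CPM in vehicle tumors (SD, n = 3 each), a log2 difference of -1.65 (SE 0.34, limma adjusted p = 0.135). Without replicate 5 the difference was -1.23 with a 95% interval of -1.53 to -0.92 (limma adjusted p = 0.00189), and with all 6 libraries DESeq2 gave -1.50 (adjusted p = 0.000976) and edgeR -1.50 (adjusted p = 0.0973). In a bulk tumor sample, fewer cells of a type and less RNA per cell cannot be told apart. The gene spans chr13:56288643-56296551 on GRCm38.

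Cxcl12, the stromal ligand of Cxcr4 and Ackr3, was at 10.2, 16.7 and 10.01 CPM in PEGPH20 tumors and 22.2, 20.3 and 16.4 CPM in vehicle tumors. PEGPH20 replicate 5 lay just above vehicle replicate 3, so the groups overlapped. Here the difference was larger without that library, at -0.88 (limma adjusted p = 0.0593) against -0.66 (SE 0.25, adjusted p = 0.231) with it. Cxcl13, which draws B cells through Cxcr5, was at 3.53, 3.75 and 0.910 CPM in PEGPH20 tumors and 7.23, 7.65 and 5.73 CPM in vehicle tumors. The groups did not overlap, with a log2 difference of -1.18 (SE 0.40, limma adjusted p = 0.200), on 21 reads in PEGPH20 and 50 in vehicle libraries. Cxcl13 passed the filter through the vehicle libraries alone, so its inclusion depended on the group in which it was higher.

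Cxcl16, a membrane-bound ligand of Cxcr6 that can be shed, was at 91.8, 60.01 and 114 CPM in PEGPH20 tumors and 117, 129 and 148 CPM in vehicle tumors. These groups did not overlap, but PEGPH20 replicate 6 and vehicle replicate 1 were nearly level. The log2 difference was -0.60 (SE 0.24, limma adjusted p = 0.245), and -0.35 (adjusted p = 0.227) without replicate 5. All 4 tested ligands of this group had negative differences. Fibroblast markers were lower as well: 10 of 11 had negative differences, with a median of -1.17 (-0.81 without replicate 5), and their summed level was 681 to 1715 CPM in PEGPH20 tumors against 3140.0 to 3236 CPM in vehicle tumors. The leading fibroblast markers were the collagens Col3a1 (224 ± 83.9 CPM in PEGPH20 and 543 ± 13.8 CPM in vehicle tumors), Col6a1 (24.6 ± 6.22 CPM in PEGPH20 and 49.2 ± 3.93 CPM in vehicle tumors) and Col1a2 (354 ± 157 CPM in PEGPH20 and 941 ± 57.7 CPM in vehicle tumors; SD, n = 3 each). All 3 passed limma's test without replicate 5 and not with it. Without that library 6 of the 11 fibroblast markers passed as lower, beside 2.03% of all genes. Their part in the chemokine values was not tested.

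Of the CC ligands of Ccr2 and Ccr3, Ccl11 alone was tested. Eotaxin, as it is also known, draws eosinophils. Ccl11 was at 15.9, 4.17 and 7.74 CPM in PEGPH20 tumors and 10.6, 14.1 and 16.8 CPM in vehicle tumors. The groups overlapped, with a log2 difference of -0.68 (SE 0.42, limma adjusted p = 0.412) and -0.27 without replicate 5. Ccl2, the main monocyte attractant, was under the filter with 21 reads in PEGPH20 and 20 in vehicle libraries, and Ccl8 had 12 reads in PEGPH20 and 9 in vehicle libraries. Ccr2, the receptor of Ccl2 on monocytes, was at 13.4, 13.8 and 17.7 CPM in PEGPH20 tumors and 12.04, 13.4 and 13.0 CPM in vehicle tumors. The PEGPH20 libraries lay above the vehicle libraries, though by a fraction of a CPM at the nearest pair, and the log2 difference was 0.20 with a 95% interval of -0.26 to 0.66 (limma adjusted p = 0.597).

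Ccl6 and Ccl9, ligands of Ccr1 in the mouse, and Ccl5, a ligand of Ccr1 and Ccr3 made by T and NK cells, had positive differences with all 6 libraries that were smaller or negative without PEGPH20 replicate 5. Ccl6 was at 66.4, 138 and 34.6 CPM in PEGPH20 tumors and 46.7, 36.7 and 32.5 CPM in vehicle tumors. Ccl5 was at 11.6, 62.5 and 8.65 CPM in PEGPH20 tumors and 17.8, 8.41 and 5.35 CPM in vehicle tumors. The groups overlapped in both, and replicate 5 was the highest library of all. The log2 difference of Ccl6 was 0.82 (limma adjusted p = 0.353) and 0.32 without replicate 5, and that of Ccl5 was 0.93 (adjusted p = 0.504) and 0.09 without it. Ccl9 was at 9.18, 9.59 and 3.64 CPM in PEGPH20 tumors and 11.6, 4.97 and 4.59 CPM in vehicle tumors, with a log2 difference of 0.08 and -0.12 without replicate 5, and it was also negative without PEGPH20 replicate 4, vehicle replicate 2 or vehicle replicate 3. Ccl3 and Ccl4 had under 20 reads each.

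Ccr1, a receptor of these ligands found on monocytes and neutrophils, overlapped between the groups. It was at 5.65, 3.75 and 5.92 CPM in PEGPH20 tumors and 4.34, 5.73 and 9.94 CPM in vehicle tumors (log2 difference -0.28, 95% interval -1.06 to 0.50). T and NK cell markers were also highest in replicate 5, with a summed level of 59.0, 238 and 63.3 CPM in PEGPH20 replicates 4, 5 and 6, against 72.8, 42.8 and 37.8 CPM in vehicle tumors. Only 3 of the 18 listed T and NK cell markers could be tested, all with positive differences, and their median was 0.85 with replicate 5 and 0.10 without it. They were the T cell receptor gene Trbc2 (15.1 ± 5.02 CPM in PEGPH20 and 7.32 ± 2.49 CPM in vehicle tumors), Gzma (57.6 ± 70.7 CPM in PEGPH20 and 21.2 ± 14.2 CPM in vehicle tumors) and Trac (8.44 ± 1.87 CPM in PEGPH20 and 6.94 ± 1.45 CPM in vehicle tumors; SD, n = 3 each). Cd3d and Cd3e, which define T cells, had 22 and 21 reads in all 6 libraries. The part of these cells in the Ccl5 values was not tested.

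Of the gut and mucosal ligands, Ccl25 and Ccl28 had groups that did not overlap, with PEGPH20 above vehicle, while those of Ccl20 overlapped. Ccl25, the ligand of Ccr9, was at 131, 459.7 and 192 CPM in PEGPH20 replicates 4, 5 and 6, against 126, 99.8 and 85.2 CPM in vehicle replicates 1, 2 and 3. The groups did not overlap, although PEGPH20 replicate 4 was close to vehicle replicate 1 and replicate 5 was far above the rest. Ccl25 had a log2 difference of 1.14 (SE 0.42, limma adjusted p = 0.223), and 0.63 with a 95% interval of 0.20 to 1.06 (adjusted p = 0.115) without replicate 5. Ccl28, which draws IgA plasma cells through Ccr10, was at 6.0, 12.1 and 6.37 CPM in PEGPH20 tumors and 0.482, 3.06 and 3.44 CPM in vehicle tumors. Here too the groups did not overlap, and the lowest vehicle value is 1 read. Its means were 8.15 ± 3.41 CPM in PEGPH20 and 2.33 ± 1.61 CPM in vehicle tumors (SD, n = 3 each), a log2 difference of 1.55 (SE 0.48, limma adjusted p = 0.183) and 1.27 (adjusted p = 0.199) without replicate 5. It passed the filter through the PEGPH20 libraries alone.

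Ccl20, the ligand of Ccr6, was at 9.88, 1.67 and 12.7 CPM in PEGPH20 tumors and 2.41, 9.56 and 5.73 CPM in vehicle tumors. The groups overlapped, and replicate 5 was the lowest of all. Its log2 difference was 0.24 (SE 0.67), and on leaving out 1 library it ran from -0.21 without PEGPH20 replicate 6 to 0.97 without PEGPH20 replicate 5 (limma adjusted p = 0.260), with negative values also without PEGPH20 replicate 4 and without vehicle replicate 1. Enterocyte and Paneth cell markers are given beside Ccl25. Of 9 enterocyte markers 8 had positive differences, with a median of 0.79 (0.42 without replicate 5), and their summed level was 5180, 16912 and 5349 CPM in PEGPH20 replicates 4, 5 and 6, against 7303, 4367 and 3227 CPM in vehicle tumors. Of 7 Paneth cell markers 6 had positive differences (median 2.10, and 1.01 without replicate 5), with 940, 5150 and 504 CPM in PEGPH20 tumors and 600, 482 and 369 CPM in vehicle tumors. In both lists replicate 5 was the highest library, as for Ccl25, and the summed levels of the groups overlapped. Taken gene by gene the lists differed. All PEGPH20 libraries lay above vehicle in 5 of the 7 Paneth cell and 1 of the 9 enterocyte markers, beside 9.71% of all genes. Of these Paneth cell markers Ang4 passed the filter through the PEGPH20 libraries alone, so the count is a description. The leading enterocyte markers were Lct (80.9 ± 101 CPM in PEGPH20 and 6.98 ± 6.38 CPM in vehicle tumors), Anpep (594 ± 660 CPM in PEGPH20 and 135 ± 38.1 CPM in vehicle tumors; SD, n = 3 each) and Alpi. The leading Paneth cell markers were Ang4 (56.6 ± 74.0 CPM in PEGPH20 and 3.67 ± 0.260 CPM in vehicle tumors; SD, n = 3 each), Defa17 and Defa30. None of them passed limma's test with or without that library. Their part in the Ccl25 values was not tested.

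Ccr9, the receptor of Ccl25 on gut-homing lymphocytes, was at 15.5, 22.9 and 9.10 CPM in PEGPH20 tumors and 9.15, 11.5 and 8.41 CPM in vehicle tumors. Replicates 4 and 5 were above the vehicle range and replicate 6 was inside it. For Ccr9 the log2 difference was 0.58 (SE 0.33, limma adjusted p = 0.374), and 0.29 without replicate 5. Ccr10, the receptor of Ccl28, was at 4.24, 6.25 and 5.46 CPM in PEGPH20 tumors and 4.82, 4.21 and 1.53 CPM in vehicle tumors, with a log2 difference of 0.56 (SE 0.37, limma adjusted p = 0.439). Its groups overlapped at PEGPH20 replicate 4. Ccr6, the receptor of Ccl20, was under the filter with under 20 reads. B and plasma cell markers, the cells that Ccr10 marks in the gut among others, had 6 of 6 tested genes with positive differences (median 0.70, and 0.65 without replicate 5), though the summed levels overlapped at 11470 to 13646 CPM in PEGPH20 and 7593 to 13122 CPM in vehicle tumors. Jchain, the joining chain of secreted IgA, averaged 2963 ± 387 CPM in PEGPH20 and 1804 ± 175 CPM in vehicle tumors (SD, n = 3 each), and it passed limma's test without replicate 5 (log2 difference 0.61, adjusted p = 0.0233) and not with it. Of the 6 tested genes 1 passed as higher without replicate 5, Jchain, beside 0.948% of all genes on that side. The other leading genes of that list were Iglc2 and Mzb1. The part of these cells in the Ccl28 and Ccr10 values was not tested.

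**Figure D3:**
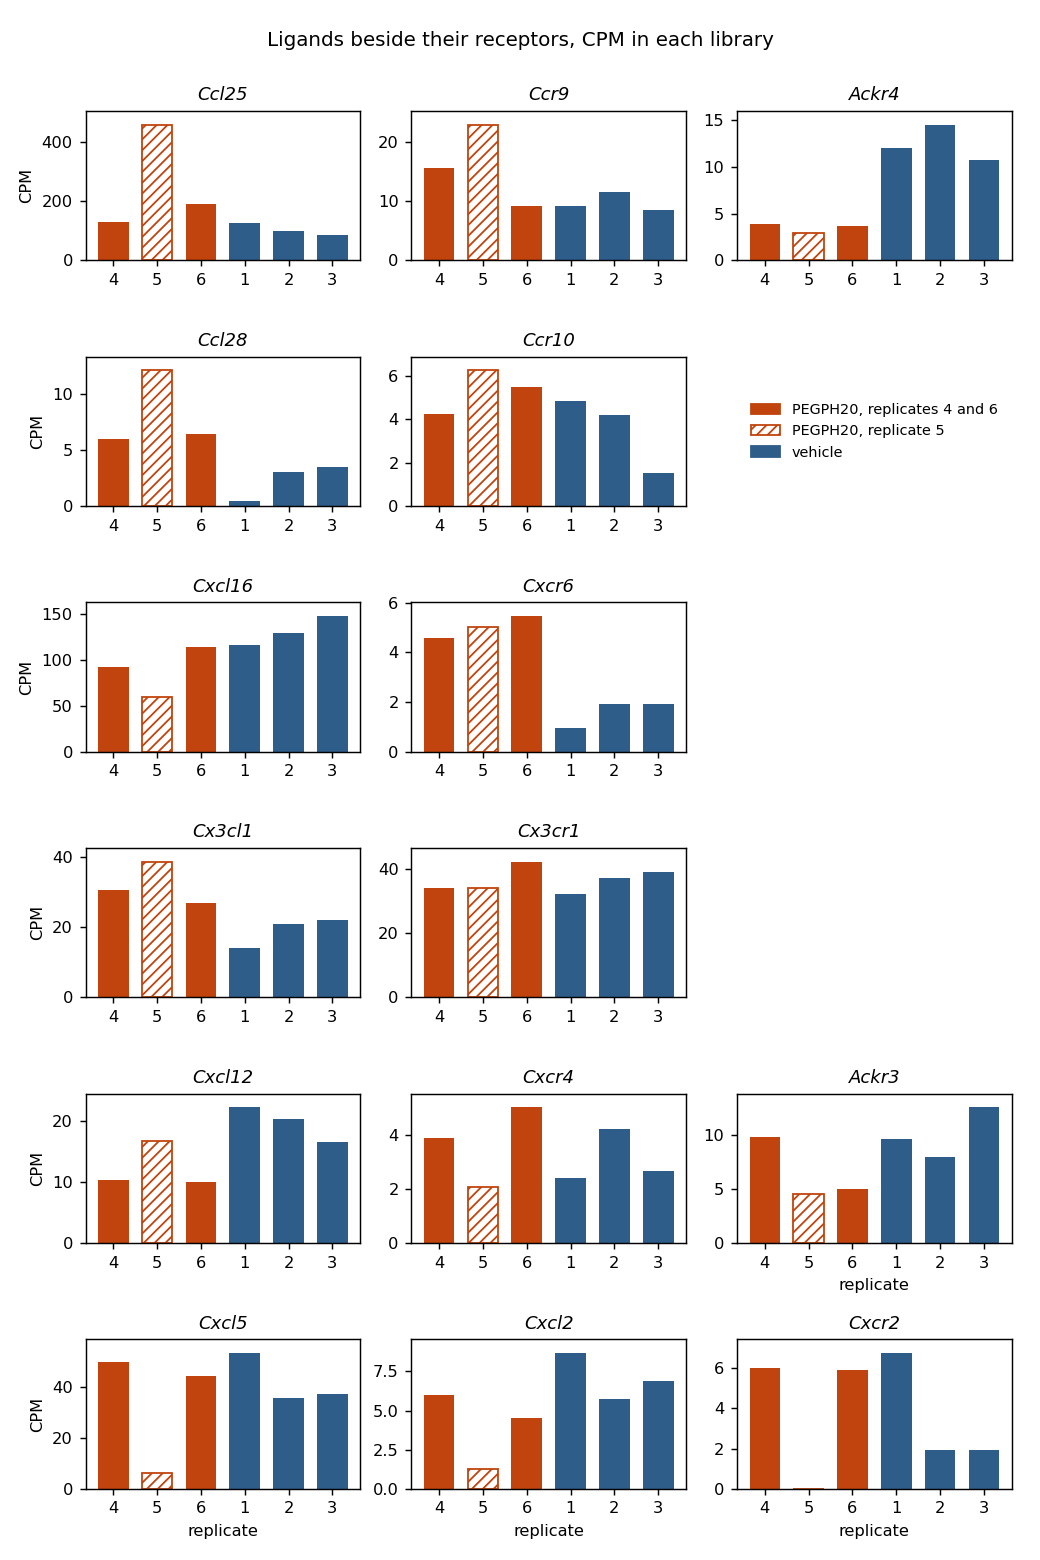
Levels in CPM (linear axes from 0, each panel on its own scale) of 6 ligand groups beside their receptors, 1 bar per library, with PEGPH20 replicates 4 to 6 left of vehicle replicates 1 to 3 and PEGPH20 replicate 5 hatched. Ackr4 and Cxcr6 separate the groups, but each passed the filter on low values only through the group in which it was higher. Ccl25 is dominated by PEGPH20 replicate 5, and Cxcr2 is at 0 in that library.

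Cx3cl1, a membrane-bound ligand of epithelium and endothelium, was at 30.7, 38.8 and 26.9 CPM in PEGPH20 tumors and 14.0, 21.03 and 22.2 CPM in vehicle tumors. Every PEGPH20 library exceeded every vehicle library. The means were 32.1 ± 6.07 CPM in PEGPH20 and 19.1 ± 4.44 CPM in vehicle tumors (SD, n = 3 each), a log2 difference of 0.73 (SE 0.23, limma adjusted p = 0.186), and 0.59 (adjusted p = 0.191) without replicate 5. Its receptor Cx3cr1, found on monocytes and gut macrophages, was at 34.2, 34.2 and 42.3 CPM in PEGPH20 tumors and 32.3, 37.1 and 39.0 CPM in vehicle tumors. The groups overlapped throughout, and the log2 difference of 0.03 had a 95% interval of -0.35 to 0.41, the narrowest of the 24 members. Its annotated span overlaps Gorasp1 and Csrnp1 on the same strand, so reads of these genes may not have been told apart. Macrophage and monocyte markers were likewise level: 4 of 11 tested had positive and 7 negative differences, with summed levels of 289 to 322 CPM in PEGPH20 and 297 to 319 CPM in vehicle tumors. Their median of -0.17 was 0.14 without replicate 5, and the leading members were C1qa (21.01 ± 3.21 CPM in PEGPH20 and 28.5 ± 2.59 CPM in vehicle tumors; SD, n = 3 each), C1qb and Mrc1.

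Cxcr6, the receptor of Cxcl16 on tissue-resident T and NK cells, was at 4.59, 5.001 and 5.46 CPM in PEGPH20 tumors and 0.964, 1.91 and 1.91 CPM in vehicle tumors. Without overlap between the groups, the PEGPH20 libraries lay close together. The log2 difference was 1.23 (SE 0.29, limma adjusted p = 0.147), and it was 1.23 without replicate 5 as well (adjusted p = 0.117). It rests on 37 reads in PEGPH20 and 12 in vehicle libraries, and it passed the filter through the PEGPH20 libraries alone. The ligand and the receptor thus differed in sign, with Cxcl16 at -0.60 and Cxcr6 at 1.23. The gene spans chr9:123806475-123811760. Cxcr4, the receptor of Cxcl12, had 27 reads in PEGPH20 and 23 in vehicle libraries and was under the filter.

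Ackr4, an atypical receptor that scavenges Ccl19, Ccl21 and Ccl25 and is found on stromal and lymphatic endothelial cells, was the receptor with the smallest p. It was at 3.88, 2.92 and 3.64 CPM in PEGPH20 replicates 4, 5 and 6, against 12.04, 14.5 and 10.7 CPM in vehicle replicates 1, 2 and 3. The groups were far apart, with 26 reads in PEGPH20 and 91 in vehicle libraries. The means were 3.48 ± 0.502 CPM in PEGPH20 and 12.4 ± 1.94 CPM in vehicle tumors (SD, n = 3 each), a log2 difference of -1.58 (SE 0.24, limma adjusted p = 0.0841). Without replicate 5 it was -1.49 with a 95% interval of -2.07 to -0.90 (limma adjusted p = 0.0171), and with all 6 libraries DESeq2 gave -1.74 (adjusted p = 0.0143) and edgeR -1.74 (adjusted p = 0.0720). It passed the filter through the vehicle libraries alone. The gene spans chr9:104084157-104126933.

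Ackr3, which scavenges Cxcl12, was at 9.88, 4.58 and 5.01 CPM in PEGPH20 tumors and 9.64, 8.03 and 12.6 CPM in vehicle tumors. PEGPH20 replicate 4 lay inside the vehicle range, and the log2 difference was -0.61 (SE 0.32, limma adjusted p = 0.346). Ackr1, which presents chemokines on venules, was under the filter with 12 reads in PEGPH20 and 34 in vehicle libraries and groups that did not overlap; its span overlaps Cadm3 on the same strand. Ackr2 had under 20 reads. Lymphatic and blood endothelial markers were lower beside these receptors. All 4 tested lymphatic markers of 5 had negative differences (median -0.93, and -0.82 without replicate 5). Their summed levels were 38.7 to 54.4 CPM in PEGPH20 and 84.5 to 101 CPM in vehicle tumors. The 10 tested blood endothelial markers of 12 were all negative (median -0.93, and -0.63 without replicate 5). Summed levels of that list were 132 to 221 CPM in PEGPH20 and 350 to 370 CPM in vehicle tumors. Lyve1, a lymphatic hyaluronan receptor, averaged 23.1 ± 3.55 CPM in PEGPH20 and 49.8 ± 0.962 CPM in vehicle tumors, and the endothelial phosphatase Ptprb 43.8 ± 9.997 CPM in PEGPH20 and 104 ± 3.09 CPM in vehicle tumors (SD, n = 3 each; limma adjusted p = 0.0841 for both). Both passed without replicate 5. Without it 1 of the 4 tested lymphatic and 3 of the 10 tested blood endothelial markers passed as lower, beside 2.03% of all genes. The other leading markers were Flt4, Pdpn, Vwf and Kdr. The part of these cells in the Ackr4 and Ackr1 values was not tested.

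**Figure D4:**
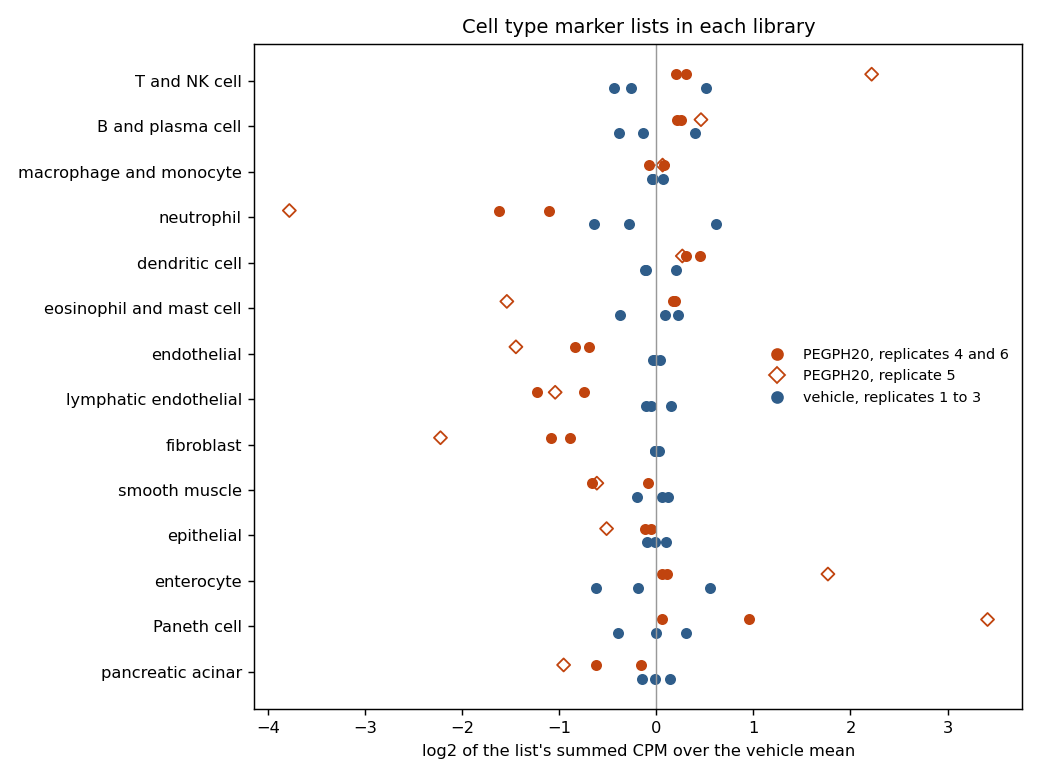
Summed CPM of 14 cell type marker lists in each library, as log2 of the ratio to the vehicle mean, with PEGPH20 libraries above vehicle libraries in each row and PEGPH20 replicate 5 as an open diamond. Neutrophil, endothelial, lymphatic and fibroblast sums are lower in every PEGPH20 library, while T and NK cell and enterocyte sums in PEGPH20 replicates 4 and 6 lie within the vehicle range and replicate 5 stands out.

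The 30 members under the filter are not all silent. Besides those given above, Ccr3, the eotaxin receptor, had 34 reads in PEGPH20 and 12 in vehicle libraries, with overlapping groups, and Xcr1, which marks cross-presenting dendritic cells, had 25 reads in PEGPH20 and 8 in vehicle libraries. Xcr1 was at 2.47, 3.33 and 4.55 CPM in PEGPH20 tumors and 1.45, 0.765 and 1.15 CPM in vehicle tumors, without overlap, and its ligand Xcl1 had 8 reads in PEGPH20 and 1 in vehicle libraries. Dendritic cell markers had summed levels of 20.004 to 22.8 CPM in PEGPH20 and 15.3 to 19.1 CPM in vehicle tumors, and their part in the Xcr1 values was not tested. Of these 7 markers 1 was tested: Itgax averaged 11.6 ± 2.70 CPM in PEGPH20 and 10.2 ± 1.16 CPM in vehicle tumors (SD, n = 3 each). Of the 30 members, 9 had at least 20 reads over the 6 libraries and 21 had 17 or fewer. Among these 21 are the lymphoid ligands Ccl1, Ccl17, Ccl21a and Ccl22 and the receptors Ccr4, Ccr7, Ccr8 and Cxcr5, whose differences were not detectable at this depth. Ccl21a and Ccl27a have near-identical copies in the genome, and reads could have been split with them.

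Of the wider pathway and marker lists, 0 genes passed limma's test with all 6 libraries. Of 27 genes of chemokine receptor signalling 22 were tested, 9 with positive and 13 with negative differences, and 0 passed limma's test with or without replicate 5. Their median of -0.06 turned positive under some settings, to 0.04 with RLE scaling and 0.07 with DESeq2. The leading members were the kinase Lyn (62.1 ± 11.2 CPM in PEGPH20 and 38.6 ± 5.65 CPM in vehicle tumors), Rgs2, a brake on G-protein signalling (77.9 ± 25.4 CPM in PEGPH20 and 124 ± 12.05 CPM in vehicle tumors), and Elmo1, which links receptors to Rac (28.5 ± 4.21 CPM in PEGPH20 and 19.1 ± 3.32 CPM in vehicle tumors; SD, n = 3 each). Among NF-kB and cytokine inducers of chemokines 6 of 16 tested were positive and 10 negative (median -0.15, and -0.08 without replicate 5). With all libraries 0 passed. Without replicate 5, where 0.948% of all genes passed on the higher side and 2.03% on the lower side, Nfkbiz passed as higher and Il1r1 as lower. Il1r1, the interleukin 1 receptor, averaged 20.5 ± 11.0 CPM in PEGPH20 and 53.2 ± 7.08 CPM in vehicle tumors (SD, n = 3 each; log2 difference -0.96 and limma adjusted p = 0.0142 without replicate 5). Rela was the other leading member.

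In the interferon-gamma axis 9 of 12 tested genes were positive and 3 negative (median 0.17, and 0.01 without replicate 5). Without that library Irf1 was the gene that passed, on the higher side, where 0.948% of all genes passed. Irf1, a transcription factor of the interferon response, averaged 191 ± 46.0 CPM in PEGPH20 and 116 ± 5.2 CPM in vehicle tumors, and Ifngr2, a chain of the interferon-gamma receptor, averaged 86.6 ± 8.85 CPM in PEGPH20 and 67.3 ± 11.5 CPM in vehicle tumors (SD, n = 3 each). Of 13 genes that cleave or display chemokines 3 were positive and 10 negative (median -0.31, and -0.13 without replicate 5), with 0 passing. Without replicate 5, 3 of the 13 passed on the lower side, beside the 2.03% of all genes. These were Mmp8, Mmp2 and Mmp14, proteases known to cut chemokines. Mmp8 was also counted among the neutrophil markers, and it passed the filter through the vehicle libraries alone. Mmp2 averaged 12.9 ± 5.79 CPM in PEGPH20 and 37.3 ± 5.49 CPM in vehicle tumors, and Mmp14 76.5 ± 35.2 CPM in PEGPH20 and 154 ± 20.5 CPM in vehicle tumors (SD, n = 3 each). The 3 tested genes of lymphoid tissue stroma, Madcam1, Tnfsf13b and Ltbr, were negative (median -0.37, and -0.18 without replicate 5). The list's summed level was 119 to 150.2 CPM in PEGPH20 and 156 to 176 CPM in vehicle tumors. Pf4, a platelet CXC chemokine outside the symbol rule, averaged 9.70 ± 4.12 CPM in PEGPH20 and 14.8 ± 2.22 CPM in vehicle tumors (SD, n = 3 each; log2 difference -0.64, limma adjusted p = 0.349).

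The summed levels of the smooth muscle, eosinophil and mast cell, and epithelial lists overlapped between the groups. Smooth muscle had 7 of 7 genes with negative differences (median -0.47), led by Tagln, Acta2 and Myh11, with summed levels of 366 to 549 CPM in PEGPH20 and 507 to 630.2 CPM in vehicle tumors. Eosinophil and mast cell markers had a median of -0.53 over 3 tested genes (Prg2, Mcpt2 and Mcpt1), which was 0.16 without replicate 5. Epithelial markers had 5 of 12 positive and 7 negative, with Epcam, Krt8 and Krt18 in the lead, and their median of -0.11 was -0.0047 without replicate 5. Of 4 pancreatic acinar genes, a check for tissue next to the gut, 2 had a row in the table used, Cela1 and Cpa1. Their summed levels were 21.3 to 36.9 CPM in PEGPH20 and 37.1 to 45.5 CPM in vehicle tumors. These sums came almost wholly from Cela1, so they describe that gene. Cela1 alone was tested, at 28.2 ± 7.95 CPM in PEGPH20 and 41.2 ± 4.21 CPM in vehicle tumors (SD, n = 3 each). The part of these cells in the chemokine values was not tested.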

How the data were processed

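Small intestine tumors were profiled with the QuantSeq forward kit, which counts tags near the 3' end of transcripts and keeps strand, from 200 ng of total RNA with single-end reads of 75 nt, per the labels' protocols. The submitters' processing notes name build GRCm38. Neither an aligner nor a counter, nor whether the optional molecular identifiers were used, is given in the sources used here. The authors deposited a table whose signal values are CPM, counts scaled to one total: gene rows sum to 1000000 in each library, as read from the values, and a further row of totals (1000000) names no gene and was left out. Whole read counts were recovered by division, 100% of values coming out whole within 1e-06 of a read. Since the values are normalized, limma was the main test and edgeR on the recovered counts an alternative. Symbols came from GENCODE M21 (21786 identifiers matched, 92 did not). No libraries were duplicates.

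The model was limma 3.58.1 with its variance trend, on log2(CPM + 1) in all 6 libraries, 3 per group by the treatment label, after edgeR's filterByExpr (minimum count 10), which left 11389 genes. Tests are two-sided, with Benjamini-Hochberg adjustment over all of them and a threshold of 0.05. Log2 differences subtract the vehicle mean of log2(CPM + 1) from the PEGPH20 mean, and the added 1 shrinks those of weakly expressed genes. A count of 0 allows up to 3 reads, 1.06 to 1.45 CPM across libraries, for counting error only. Members and gene lists were chosen with earlier results of these data known. All tested members are named, with members under the filter that had at least 20 reads and the 3 genes of each list with the smallest p; Cd3d and Cd3e were named in addition, to show the depth. Some items that this rule takes in are not reported here. Scripts were tested on simulated data. Alternatives were edgeR 4.0.16, DESeq2 1.42.0, limma-voom, array weights, other scalings, pseudocounts and filters, and leaving out each library; edgeR without PEGPH20 replicate 5 was added after seeing the data. Promoters are RefSeq's on GRCm38.p6, and protein sequences were not used here. R 4.3.3 and Python 3.11.15 were used.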

Additional observations from a re-analysis of the deposited data

How the results depend on the processing

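No member reversed its sign under TMM, RLE or upper quartile scaling, and 0 members passed under these, other pseudocounts and filters, edgeR or limma-voom. The number of members whose groups did not overlap, 9 as deposited, was 8 with TMM and 7 with RLE or upper quartile scaling. It was 11 with a filter of mean CPM of at least 1 and 12 with no filter. The number of members past the threshold was 2 with DESeq2, 6 with array weights, 2 with edgeR without PEGPH20 replicate 5 (chosen after seeing the data), and 0 to 2 on leaving out each library. Over all genes it was 29 with no filter, 277 with DESeq2, 18 with limma-voom, 871 with array weights, 421 with edgeR without PEGPH20 replicate 5, and 1 to 339 on leaving out each library. Reversed log2 differences were those of Cxcr2 (0.033 with a pseudocount of 5, 0.32 with edgeR, 0.22 with DESeq2, 0.83 with array weights, 0.85 with edgeR without replicate 5), Ccl9 (-0.17 with array weights, -0.017 with edgeR without replicate 5) and Cxcl5 (0.074 and 0.19 under the same settings). On leaving out each library the log2 differences ran from -0.62 to 0.79 for Cxcr2, -0.13 to 0.47 for Ccl9, -1.23 to 0.18 for Cxcl5, -0.21 to 0.97 for Ccl20, -0.072 to 0.084 for Cx3cr1, -0.14 to 0.34 for Cxcl9 and -0.51 to 0.0067 for Ccr1. The cause was not tested. Of all member differences under alternatives, 397 kept their sign and side of the threshold, 12 came past it and 23 reversed. The median over all genes was -0.09 as deposited, -0.01 with TMM, 0.01 with RLE and -0.04 with upper quartile scaling. Depth limits precision: the tested receptors had 12 to 272 reads per group. No paired analysis was possible because the groups share no replicate numbers.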

Other observations

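Many members lie side by side in the genome. With neighbours at most 1000000 bases apart, 26 of the 54 formed 5 clusters of 3 or more on GRCm38. The receptor cluster on chromosome 9 includes Ccr9, Cxcr6, Xcr1, Ccr1, Ccr3 and Ccr2. Of its 4 tested members 3 had positive log2 differences between PEGPH20 and vehicle tumors (Ccr9, Cxcr6 and Ccr2) and Ccr1 a negative one. In the CC ligand cluster at chr11:83525778-83664683 the 3 tested members, Ccl5, Ccl6 and Ccl9, had positive differences with all 6 libraries, of which that of Ccl9 turned negative without PEGPH20 replicate 5, PEGPH20 replicate 4, vehicle replicate 2 or vehicle replicate 3, while the nearby cluster at chr11:82035571-82305690, with Ccl2, Ccl7, Ccl11, Ccl12, Ccl8 and Ccl1, had Ccl11 alone tested, with a negative one. The CXC cluster at chr5:90759360-90905938, with Cxcl5, Cxcl3, Cxcl15, Cxcl1 and Cxcl2, had negative differences for both tested members, of which that of Cxcl5 turned positive without PEGPH20 replicate 5. No test was made of position.

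Cxcl11, an interferon-inducible Cxcr3 ligand, is annotated as a polymorphic pseudogene and so was no member. It was at 3.53, 7.92 and 0.455 CPM in PEGPH20 replicates 4, 5 and 6, against 2.41, 1.91 and 2.68 CPM in vehicle replicates 1, 2 and 3, with overlapping groups. A further 8 annotated symbols of the family had no row in the table used, among them the Ccr7 ligands Ccl19 and Ccl21b and the receptor Cxcr1.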
